A study of Mus musculus with 47 samples.

Results

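The genes of bile acid synthesis and transport were described across the histone marks of mouse liver. The set holds 10 genes named by symbol (Cyp7a1, Cyp7b1, Cyp8b1, Cyp27a1, Baat, Slc10a1, Abcb11, Nr1h4, Nr0b2 and Fgfr4), all found among the 22380 protein-coding genes of GENCODE M1 on NCBIM37 (mm9). ChIP-seq was done on whole livers of 7 week old mice, male and female, for 3 marks: H3K27me3, H3K27ac and H3K4me1. Control mice were littermates that carried floxed Ezh2 (Ezh2 f/f), and the labels give no Ezh1 or Cre genotype for them. E1/E2-KO mice lacked Ezh1 in all cells (Ezh1-/-) and lost Ezh2 through Alb-Cre, which acts in hepatocytes, so cells of other lineages in these livers, such as Kupffer, endothelial and stellate cells, are outside its reach. The sample records hold 47 samples, 4 livers for each group and mark and 3 for H3K4me1 in E1/E2-KO females. The reads of a group were joined before peaks were called, which left 12 lists of positions, 1 for each mark and group. A value below is therefore a count or a coverage in 1 pooled list, with no replicate error and no test, and in whole liver more of a mark per cell cannot be told apart from more cells that carry it.

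Hepatocytes make bile acids from cholesterol and take them up again from portal blood. Cyp7a1 is the rate-limiting enzyme of the classic pathway, Cyp8b1 sets the share of cholic acid, Cyp27a1 and Cyp7b1 act in the alternative pathway, and Baat joins bile acids to taurine or glycine. Slc10a1 (NTCP) carries conjugated bile acids into the hepatocyte and Abcb11 (BSEP) pumps them into bile. Bile acids bind the nuclear receptor Nr1h4 (FXR), which induces Nr0b2 (SHP), a repressor of Cyp7a1 and Cyp8b1, and Fgfr4 is the hepatocyte receptor through which intestinal Fgf15 represses Cyp7a1. Ezh1 and Ezh2 are the catalytic subunits of the complex that places H3K27me3, a mark of silent genes, whereas H3K27ac marks active promoters and enhancers and H3K4me1 marks enhancers.

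The lists differed in length, and this bears on every count of peaks. H3K27ac had 29359 peaks in control males against 49702 to 55930 in the other 3 lists, H3K4me1 had 51417 to 69797 peaks, and H3K27me3 had 15603 to 19796 regions. Peaks on the Y chromosome occurred in the 6 male lists (5 to 29 peaks each) and in none of the female lists. The lists hold no score and the depth of the reads is unknown. They cannot show the deletion of Ezh1 or of the Ezh2 exons. Of 8 hepatocyte markers, all 8 lay outside H3K27me3 regions in both control lists, and 7 had an H3K27ac peak within 10 kb in all 4 lists (the exception was Serpina1c, one of a family of near-identical copies). All 6 cholangiocyte markers were at least 25% inside H3K27me3 regions in both control lists.

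The starts of the genes are shown first for the 3 whose transcription start lay inside an H3K27me3 region in E1/E2-KO liver (Cyp8b1, Nr0b2 and Fgfr4). These 3 were chosen for print after their values were seen. Each line gives 300 bases of NCBIM37, from 250 bases before to 50 bases after the 5′ end of the annotated gene, on the strand of the gene. Capitals mark matches, on either strand, to 1 of 7 motifs: the inverted repeat of FXR, CAAGGTCA (LRH-1), CAAAGTCCA (HNF4A), TTCNNNGAA (STAT5), TTGCNNAA (C/EBP), the HNF1 motif and TATAAA. No matches of different motifs overlapped in the printed sequences.
Cyp8b1, chr9:121825374-121825673, minus strand: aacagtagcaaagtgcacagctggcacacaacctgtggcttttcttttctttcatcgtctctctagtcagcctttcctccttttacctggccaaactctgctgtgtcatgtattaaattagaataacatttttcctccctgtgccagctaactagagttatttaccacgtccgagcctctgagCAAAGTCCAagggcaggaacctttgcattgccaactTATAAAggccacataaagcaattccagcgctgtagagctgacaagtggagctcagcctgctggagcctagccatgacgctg
Nr0b2, chr4:133109041-133109340, plus strand: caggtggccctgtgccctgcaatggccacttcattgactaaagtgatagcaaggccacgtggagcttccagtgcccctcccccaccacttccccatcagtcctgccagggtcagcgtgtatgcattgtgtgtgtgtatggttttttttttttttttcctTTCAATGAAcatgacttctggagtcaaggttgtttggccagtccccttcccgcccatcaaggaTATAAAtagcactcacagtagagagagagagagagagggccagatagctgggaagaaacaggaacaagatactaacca
Fgfr4, chr13:55253751-55254050, plus strand: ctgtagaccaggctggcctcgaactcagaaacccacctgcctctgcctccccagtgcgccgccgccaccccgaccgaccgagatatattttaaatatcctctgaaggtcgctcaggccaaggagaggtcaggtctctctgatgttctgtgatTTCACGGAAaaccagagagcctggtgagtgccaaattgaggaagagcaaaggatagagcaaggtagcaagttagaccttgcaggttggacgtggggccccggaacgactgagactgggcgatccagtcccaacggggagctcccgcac

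Cyp8b1 held the HNF4A motif at -67 and TATAAA at -31 relative to its start. Nr0b2 held the STAT5 motif at -91 and TATAAA at -28, and Fgfr4 held the STAT5 motif at -98. Among the 22380 promoters cut the same way, 0.456% held the HNF4A motif, 7.94% the STAT5 motif and 13.4% TATAAA. The 3 windows differed in CpG number, with 5 in Cyp8b1, 3 in Nr0b2 and 15 in Fgfr4, where the median over all genes was 11 and that over 9 of the 10 bile acid genes was 6. A match of letters is a description and not a bound site.

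The next lines show the starts that an H3K27ac peak covered in some but not all groups (Cyp7b1, Baat, Slc10a1, Abcb11 and Nr1h4).
Cyp7b1, chr3:18143289-18143588, minus strand: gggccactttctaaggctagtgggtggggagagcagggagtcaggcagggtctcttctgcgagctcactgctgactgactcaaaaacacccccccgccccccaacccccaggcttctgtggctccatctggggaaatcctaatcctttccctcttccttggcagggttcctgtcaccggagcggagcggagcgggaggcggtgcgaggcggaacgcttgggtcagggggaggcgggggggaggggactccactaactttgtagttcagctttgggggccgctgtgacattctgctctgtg
Baat, chr4:49519380-49519679, minus strand: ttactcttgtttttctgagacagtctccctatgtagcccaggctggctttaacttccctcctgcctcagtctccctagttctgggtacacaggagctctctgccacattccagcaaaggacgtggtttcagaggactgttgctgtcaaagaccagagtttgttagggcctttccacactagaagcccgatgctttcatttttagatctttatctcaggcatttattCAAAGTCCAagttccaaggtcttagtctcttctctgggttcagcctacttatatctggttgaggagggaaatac
Slc10a1, chr12:82068922-82069221, minus strand: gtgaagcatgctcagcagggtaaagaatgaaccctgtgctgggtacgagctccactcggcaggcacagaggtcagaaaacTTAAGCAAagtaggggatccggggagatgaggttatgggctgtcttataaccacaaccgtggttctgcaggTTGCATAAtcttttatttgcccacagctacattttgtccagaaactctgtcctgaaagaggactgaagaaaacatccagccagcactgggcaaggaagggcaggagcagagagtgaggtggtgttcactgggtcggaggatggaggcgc
Abcb11, chr2:69180622-69180921, minus strand: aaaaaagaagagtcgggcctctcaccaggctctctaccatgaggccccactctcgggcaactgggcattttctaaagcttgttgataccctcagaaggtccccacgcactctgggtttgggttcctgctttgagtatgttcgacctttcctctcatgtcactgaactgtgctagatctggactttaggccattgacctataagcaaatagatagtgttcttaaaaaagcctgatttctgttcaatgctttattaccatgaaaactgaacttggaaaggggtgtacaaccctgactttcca
Nr1h4, chr10:88996281-88996580, minus strand: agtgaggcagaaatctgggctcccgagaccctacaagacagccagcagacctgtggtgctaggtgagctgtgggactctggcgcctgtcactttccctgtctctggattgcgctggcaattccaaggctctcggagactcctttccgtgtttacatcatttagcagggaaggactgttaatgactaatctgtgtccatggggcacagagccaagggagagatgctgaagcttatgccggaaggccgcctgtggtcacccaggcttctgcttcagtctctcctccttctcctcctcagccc

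Baat held the HNF4A motif at -24 relative to the start, and Slc10a1 held the C/EBP motif at -170 (on the strand opposite to the gene) and at -99. The C/EBP motif occurred in 10.3% of all promoters. Cyp7b1, Abcb11 and Nr1h4 had none of the 7 motifs in this window. The FXR inverted repeat, CAAGGTCA and the HNF1 motif occurred in 0 of the 9 bile acid promoters searched and in 0.00894%, 1.3% and 0.384% of all promoters.

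The first comparison asked where H3K27me3 lay on these genes when both methyltransferases were missing from hepatocytes. None of the 10 genes touched an H3K27me3 region in either control list. In E1/E2-KO males 4 of 10 genes did so, all with at least 25% of their span inside regions: Cyp8b1, Cyp27a1, Nr0b2 and Fgfr4. In E1/E2-KO females 2 of 10 did so, Nr0b2 and Fgfr4. The same pattern, 0% in both control lists and at least 25% in E1/E2-KO males, held for 4.72% of all protein-coding genes and for 6.81% of the 13311 genes that had an H3K27ac peak within 10 kb in all 4 lists, as all 10 bile acid genes had. For E1/E2-KO females these shares were 2.12% and 2.79%, and for both E1/E2-KO lists together, where 2 bile acid genes qualified, they were 1.64% and 2.37%. Any overlap with a region was found for 42.4% of all genes in control males and 42.6% in control females, for 47% in E1/E2-KO males and for 40.7% in E1/E2-KO females, so the 0 of 10 in the controls stood below the level of the genome. For the genes with H3K27ac in all 4 lists these shares were 37.4%, 36.9%, 46.5% and 35.6%. H3K27me3 regions covered 766 Mb in control males and 750 Mb in E1/E2-KO males, and 728 Mb and 707 Mb in females. The lists hold positions and no amount of the mark. A region called in E1/E2-KO liver alone is therefore not a measured gain of H3K27me3.

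**Figure D1:**
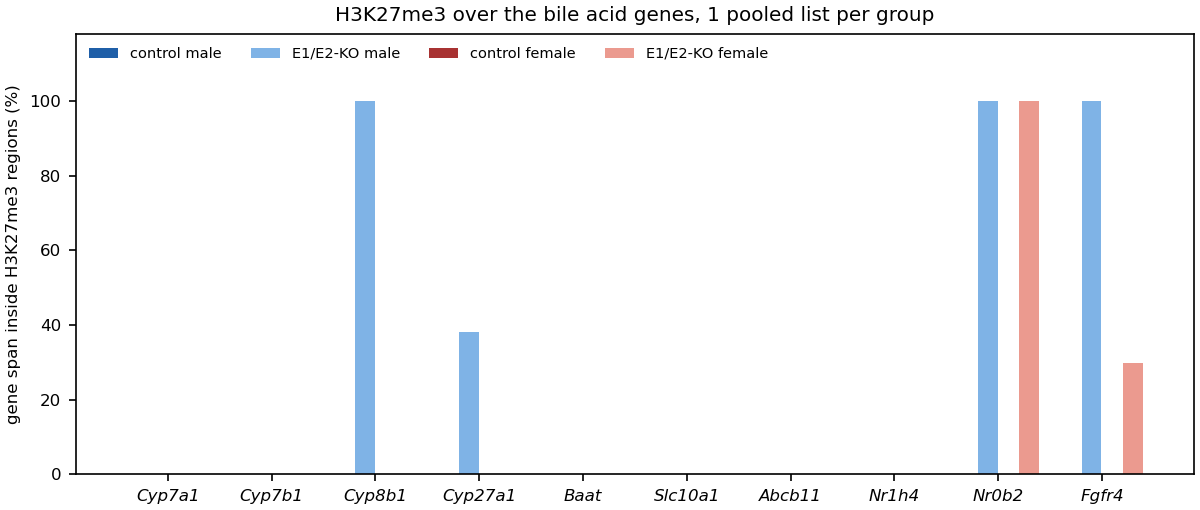
Percent of each gene's span (y axis) inside H3K27me3 regions, for the 10 bile acid genes (x axis) and the 4 groups (bar colours), with 1 pooled list per group and no error. Cyp8b1, Nr0b2 and Fgfr4 reach 100% in E1/E2-KO males, Nr0b2 also in E1/E2-KO females, and both control groups are at 0% for all 10 genes.

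Cyp8b1 (chr9:121823474-121825423, minus strand) was 0% covered in control males, 100% in E1/E2-KO males, 0% in control females and 0% in E1/E2-KO females. The E1/E2-KO male region spanned 23200 bp (chr9:121814001-121837200), reached from -11777 to 11422 bp around the start and also touched the neighbour Ccbp2. It held 8 H3K27ac peaks and 2 H3K4me1 peaks of the same group. In E1/E2-KO females the nearest region lay 15777 bp away, and in the control lists 44673 bp (male) and 67873 bp (female) away.

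Nr0b2 (chr4:133109291-133112451, plus strand) was 0% covered in both control lists and 100% covered in both E1/E2-KO lists. The region spanned 28800 bp in E1/E2-KO males (chr4:133102401-133131200, touching Gpatch3) and 15200 bp in E1/E2-KO females (chr4:133104401-133119600). The female region lay inside the male one and held Nr0b2 as its sole protein-coding gene. In the controls the nearest region was 28890 bp away in male and 32090 bp away in female liver.

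Fgfr4 (chr13:55254001-55270120, plus strand) was 0% covered in both control lists, 100% in E1/E2-KO males and 29.8% in E1/E2-KO females. The E1/E2-KO male region was 43200 bp wide (chr13:55237601-55280800) and the E1/E2-KO female region 18000 bp (chr13:55240801-55258800). Both covered the start of the gene, and the female region ended 4799 bp into it. Control female liver had a region of 4800 bp (chr13:55271601-55276400) that began 1480 bp beyond the end of Fgfr4, and the nearest region of control males lay 127200 bp away.

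Cyp27a1 (chr1:74760148-74784464, plus strand) was 0% covered in both control lists and in E1/E2-KO females, and 38.1% covered in E1/E2-KO males. The region of E1/E2-KO males (chr1:74775201-74801600, 26400 bp) began 15053 bp after the start, ran over the 3′ end and continued into Prkag3. Control male liver already had a region of 7200 bp (chr1:74790001-74797200) over Prkag3, 5536 bp from Cyp27a1, which lay within the larger region of E1/E2-KO males. The start of Cyp27a1 was outside H3K27me3 regions in all 4 lists.

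**Figure D2:**
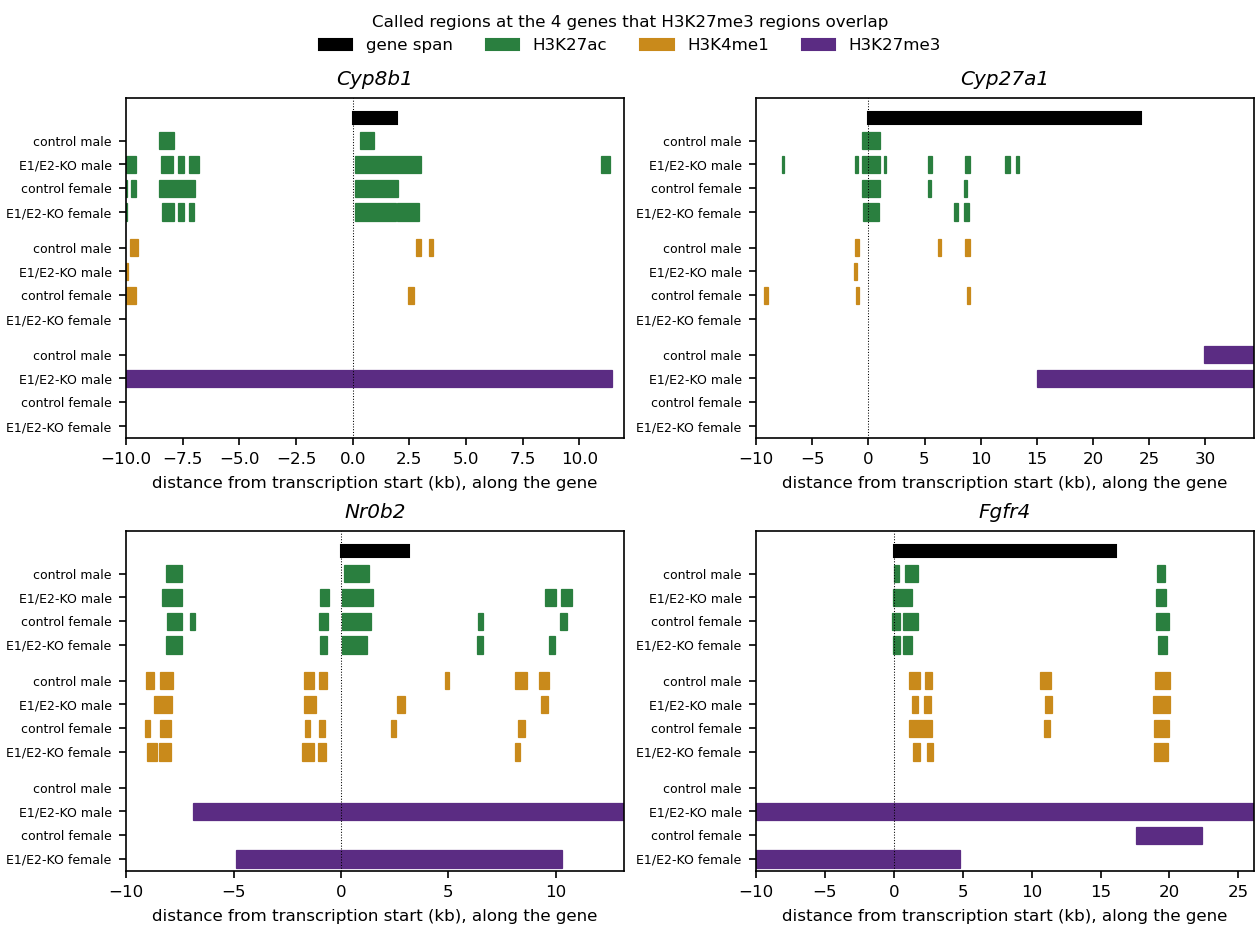
Called H3K27ac (green), H3K4me1 (ochre) and H3K27me3 (purple) regions in the 4 groups (rows), against distance from the transcription start in kb (x axis), for Cyp8b1, Cyp27a1, Nr0b2 and Fgfr4 with 10 kb on each side. The purple bars cross the start of Cyp8b1 in E1/E2-KO males and the starts of Nr0b2 and Fgfr4 in both E1/E2-KO groups, and at Cyp27a1 they lie over the 3′ part.

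The other 6 genes had no H3K27me3 over their span in any list. Cyp7a1 (chr4:6192759-6202780, minus strand) was 49220 to 452758 bp from the nearest region. Baat (chr4:49502294-49519429, minus strand) was 34571 to 63371 bp away, Nr1h4 (chr10:88916979-88996330, minus strand) 52178 to 94178 bp, and Slc10a1 (chr12:82054172-82068971, minus strand) 14629 to 18229 bp. Abcb11 (chr2:69076339-69180671, minus strand) had a region of 25200 bp over G6pc2 and Spc25 at 7938 bp in E1/E2-KO males (chr2:69043201-69068400), where the nearest region of the other 3 lists was 83729 to 86929 bp away. Cyp7b1 (chr3:17971950-18143338, minus strand) had a region over its downstream neighbour Bhlhe22 in all 4 lists, 28000 to 30400 bp wide and 2749 to 5149 bp from the gene.

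Active marks were still called inside these regions. In E1/E2-KO males 12 of the 68 H3K27ac peaks at the 10 genes (17.6%) lay in an H3K27me3 region, against 0 of 37 in control males, 1 of 57 in control females and 6 of 62 (9.68%) in E1/E2-KO females. Over the whole H3K27ac lists the shares were 15.5% in control males, 33.6% in E1/E2-KO males, 19.1% in control females and 22.2% in E1/E2-KO females, so the peaks at the bile acid genes stood below their list in each group. For H3K4me1 the counts were 0 of 51, 8 of 34, 1 of 41 and 5 of 31 in control males, E1/E2-KO males, control females and E1/E2-KO females (0%, 23.5%, 2.44% and 16.1%), below the 27.7%, 39.9%, 25.9% and 27.9% of the whole H3K4me1 lists. Whether both marks lay on the same chromosomes or in different cells cannot be told apart in pooled whole liver.

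Markers of the liver cell types had the following H3K27me3 values beside this result. Of the 8 hepatocyte markers, 3 were higher by at least 25 percentage points in E1/E2-KO males than in control males (Apoa1, Tat and Ahsg, each 0% in the control and 100% in E1/E2-KO) and 2 in females (Apoa1 at 50.3% and Tat at 65.8%, both 0% in the control). This difference of at least 25 points upward was found for 9.85% of all genes in males and 6.29% in females, and for 13.6% and 7.06% of the genes with H3K27ac in all 4 lists. Of the 6 sinusoidal endothelial markers, 3 were lower by that amount in males, Stab2 (87.3% in the control, 0% in E1/E2-KO), Pecam1 (100% and 0%) and Oit3 (85.7% and 0%), and 2 in females, Stab2 (64.2% and 0%) and Pecam1 (87.6% and 0%). A difference of that size downward was found for 6.07% of all genes in males and 7.58% in females (5.81% and 7.93% of those with H3K27ac in all 4 lists). The 10 bile acid genes, at 0% in both control lists, could not be lower. No stellate or cholangiocyte marker was lower by 25 points in males, and 1 of 6 Kupffer markers was (Timd4, 41.6% and 0%). In females 2 of 6 stellate markers (Dcn and Colec11) and 1 of 6 Kupffer markers (Csf1r) were lower by that amount. Upward, 1 of 6 cholangiocyte markers was higher by that amount in females (Epcam, 70.6% in the control and 100% in E1/E2-KO). No other endothelial, stellate, cholangiocyte or Kupffer marker was higher by that amount in either sex. H3K27ac peaks summed over the endothelial list were 9, 32, 27 and 34 in control males, E1/E2-KO males, control females and E1/E2-KO females. In the same order the sums were 16, 39, 38 and 32 over the hepatocyte list, 1, 4, 3 and 7 over the stellate list, 2, 5, 4 and 4 over the cholangiocyte list and 4, 4, 3 and 3 over the Kupffer list. The part of cell composition in the H3K27me3 values of the bile acid genes was not tested.

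The next comparison concerned the active mark H3K27ac, counted as peaks within 10 kb of a gene. Summed over the 10 genes there were 37 peaks in control males, 68 in E1/E2-KO males, 57 in control females and 62 in E1/E2-KO females. The ratio of E1/E2-KO to control males was 1.84, close to the ratio of the list lengths (1.91), and the ratio in females was 1.09 (list lengths 1.03). In males 8 of 10 genes had more peaks in E1/E2-KO than in control liver, against 44.3% of all genes and 59.2% of the genes with H3K27ac in all 4 lists. In females 4 of 10 had more (22.9% and 30.5%) and 2 had fewer (19.5% and 27.9%). Each list was then reduced to its 29359 widest peaks, the number of the control male list. The sums became 37, 36, 34 and 40 in the order above. In males 3 genes then had more peaks (15.5% of all genes and 18.9% of those with H3K27ac in all 4 lists under the same cut) and 3 had fewer (19% and 30.8%). The narrowest peak kept was 221 bp in control males, whose list was kept whole. It was 426 bp in E1/E2-KO males, 408 bp in control females and 357 bp in E1/E2-KO females. The cut removes narrow peaks from the longer lists alone. It therefore cannot show whether the higher number of peaks in males depends on list length. Under this cut a gained peak was still found at 7 genes in E1/E2-KO males (23% and 31.5%) and a lost one at 2 (22.2% and 36.1%).

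**Figure D3:**
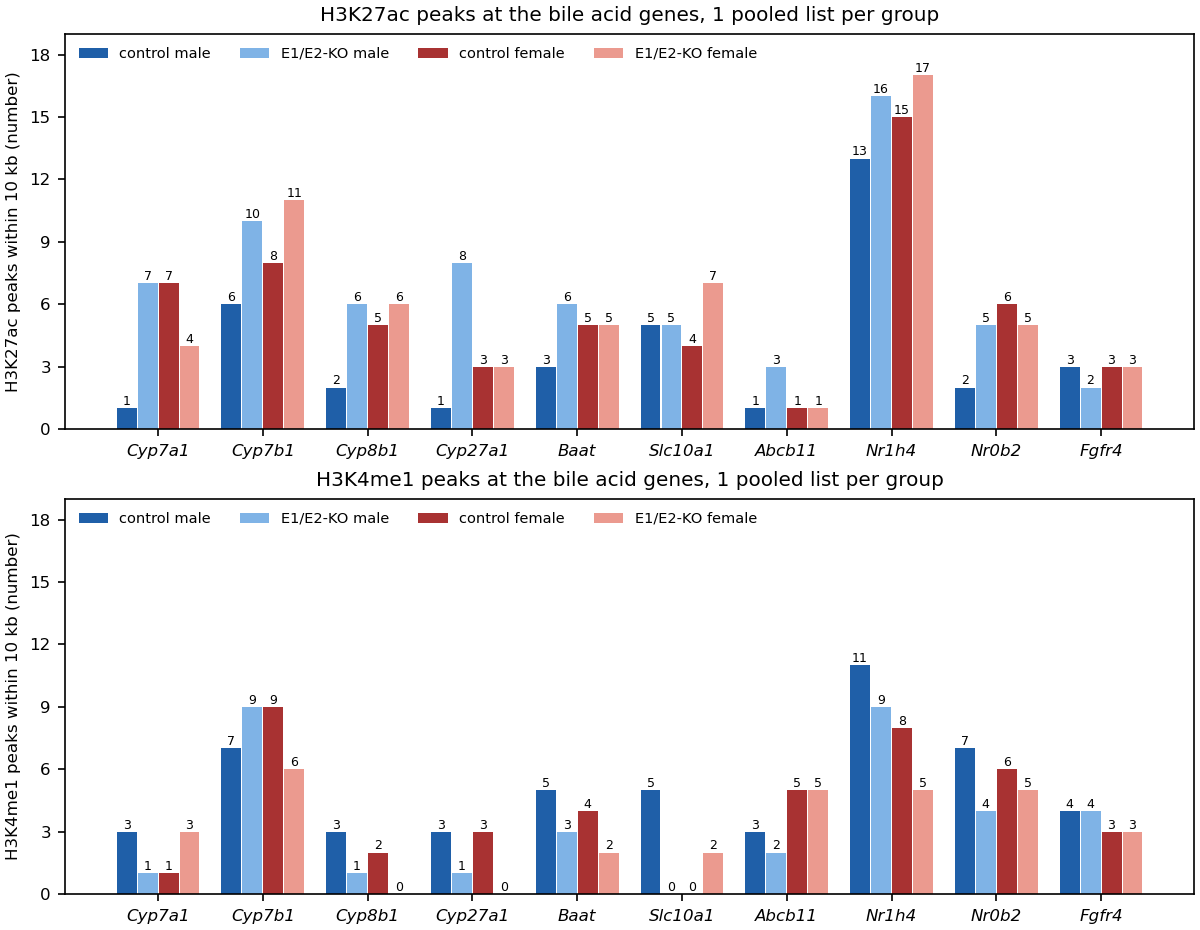
Number of H3K27ac peaks (upper panel) and H3K4me1 peaks (lower panel) within 10 kb of each of the 10 genes (x axis) in the 4 groups (bar colours, the number above each bar), 1 pooled list per group and no error. In males 8 genes have more H3K27ac and 8 have fewer H3K4me1 peaks in E1/E2-KO than in control liver.

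Cyp7a1 had the lowest H3K27ac count of the enzymes in control males, together with Cyp27a1. It had 1 H3K27ac peak in control males, 7 in E1/E2-KO males, 7 in control females and 4 in E1/E2-KO females. The single peak of control males (chr4:6189738-6189999) was downstream of the gene, 12912 bp from the start, and all 4 lists had a peak there. Peaks near the start were called in the other 3 groups, with the nearest at 307 bp in E1/E2-KO males, 260 bp in control females and 362 bp in E1/E2-KO females, against 12781 bp in control males. A locus in the first part of the gene, centred 602 bp after the start, occurred in these 3 lists, whereas loci centred at -655 and -2427 bp, upstream of the start, occurred in E1/E2-KO males and control females and in neither of the other lists. No list had a peak over the start itself. At equal list length Cyp7a1 had 1, 1, 1 and 2 peaks, so most of the peaks that differed between groups were not among the widest.

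H3K4me1 at Cyp7a1 went the other way in number. There were 3 peaks in control males, 1 in E1/E2-KO males, 1 in control females and 3 in E1/E2-KO females. A locus centred 17018 bp downstream of the start was shared by all 4 lists, and one centred at -3300 bp by control males and E1/E2-KO females.

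Cyp7b1, the longest gene of the set at 171389 bp, had 6, 10, 8 and 11 H3K27ac peaks in control males, E1/E2-KO males, control females and E1/E2-KO females. All 4 lists had H3K27ac at the start region, where the nearest peak of control males lay 68 bp from the start and the other 3 lists had a peak over it. One intronic locus, centred 102814 bp into the gene (chr3:18040102-18040946), was called in both male lists and in neither female list. It lay nearer to the start of Bhlhe22 than to that of Cyp7b1, and it was the sole locus with this pattern among the 77 H3K27ac loci of the 10 genes (1.3%, against 0.824% of the 73144 loci of the genome). E1/E2-KO females had a separate H3K27ac peak close by (chr3:18039013-18039331), so the difference between the sexes concerns the position called. The middle 300 bases of the locus of the male lists (chr3:18040375-18040674, plus strand of NCBIM37) are shown because they carry this difference. None of the 7 motifs matched them.
Cyp7b1 intronic locus: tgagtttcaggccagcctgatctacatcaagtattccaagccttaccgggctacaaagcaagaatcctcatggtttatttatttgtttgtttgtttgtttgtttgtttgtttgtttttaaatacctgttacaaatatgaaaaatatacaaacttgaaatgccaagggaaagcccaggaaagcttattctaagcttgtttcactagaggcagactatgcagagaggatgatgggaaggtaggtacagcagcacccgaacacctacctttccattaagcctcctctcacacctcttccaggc
H3K4me1 peaks at Cyp7b1 numbered 7 in control males, 9 in E1/E2-KO males, 9 in control females and 6 in E1/E2-KO females. H3K4me1 overlapped this stretch of the intron in both male lists and in neither female list, where the nearest peak of control females (chr3:18039816-18040085) ended before it. That peak overlapped one of control males (chr3:18040075-18040734). As a merged locus (chr3:18039816-18040775), H3K4me1 was thus called in both male lists and in control females, and not in E1/E2-KO females.

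Cyp8b1 had 2 H3K27ac peaks in control males, 6 in E1/E2-KO males, 5 in control females and 6 in E1/E2-KO females. It had the highest H3K27ac coverage of the set in every list but that of control males, with 5.88%, 22.6%, 17.4% and 17.7% of its window inside peaks in the same order. The widest peak over the gene measured 2878 bp in E1/E2-KO males and 1920 bp in control females. At equal list length it kept 2, 4, 4 and 4 peaks. H3K4me1 peaks at Cyp8b1 numbered 3, 1, 2 and 0, so that E1/E2-KO females had none there or at Cyp27a1 (5.15% of the genes with H3K27ac in all 4 lists and 29.1% of all genes had none). The 2 H3K27ac loci downstream of Cyp8b1 lay nearer to the start of Ccbp2.

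Cyp27a1 had 1 H3K27ac peak in control males, 8 in E1/E2-KO males, 3 in control females and 3 in E1/E2-KO females. The shared peak lay over the start in all 4 lists and was 1488 to 1691 bp wide. Of its 9 loci, 5 were called in E1/E2-KO males alone, all 212 to 394 bp wide. H3K4me1 peaks numbered 3, 1, 3 and 0, and the locus centred at -1086 bp was present in 3 lists and absent from E1/E2-KO females.

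Baat, the conjugating enzyme, had 3, 6, 5 and 5 H3K27ac peaks and 5, 3, 4 and 2 H3K4me1 peaks in control males, E1/E2-KO males, control females and E1/E2-KO females. H3K27ac covered 4.47%, 8.04%, 9.93% and 4.99% of its window. Control male liver had no peak over the start, the nearest being 105 bp away, and the other 3 lists had one. The H3K27ac loci 20597 to 24251 bp beyond the start were closer to the start of Acnat1, a related acyltransferase gene.

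The transporters differed from each other. Slc10a1 had 5 H3K27ac peaks in control males, 5 in E1/E2-KO males, 4 in control females and 7 in E1/E2-KO females. These counts arose from how the same 3 loci were divided, since each locus was called in all 4 lists: one around the start, one centred at -8216 bp and one at 22493 bp, downstream, near Srsf5. Covered bases were 3686, 4619, 5162 and 3906 bp. H3K4me1 at Slc10a1 was called in 5 peaks in control males, 0 in E1/E2-KO males, 0 in control females and 2 in E1/E2-KO females. Among genes with H3K27ac in all 4 lists, 1.94% had no H3K4me1 peak in E1/E2-KO males and 2.88% had none in control females (24.7% and 28.7% of all genes). At equal list length the H3K4me1 counts at Slc10a1 were 4, 0, 0 and 2.

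Abcb11 had few peaks for its span of 104333 bp. It had 1, 3, 1 and 1 H3K27ac peaks in control males, E1/E2-KO males, control females and E1/E2-KO females. The shared peak lay at the start, 943 bp wide and 86 bp from the start in control males and 1319 to 1469 bp wide over the start in the other 3 lists. The further 2 loci of E1/E2-KO males were 316 and 362 bp wide. H3K4me1 peaks numbered 3, 2, 5 and 5, and Abcb11 had more of them in control females than in control males, which only Cyp7b1 among the other 9 genes shared.

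**Figure D4:**
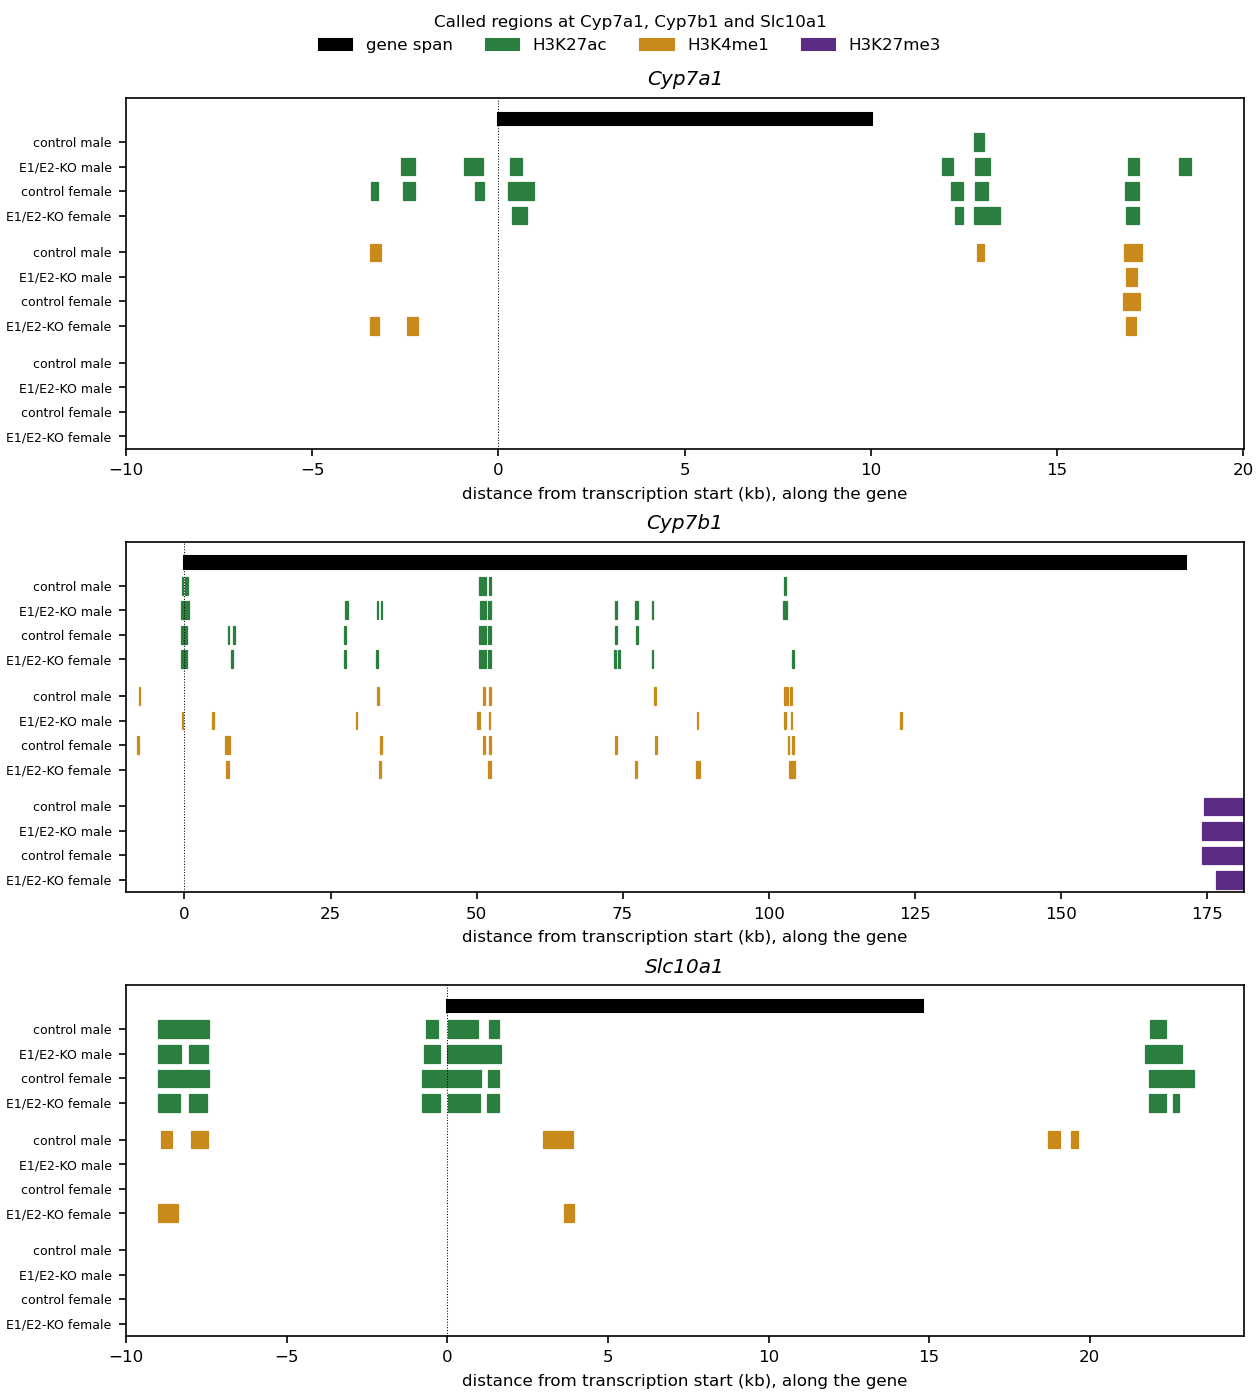
Called H3K27ac (green), H3K4me1 (ochre) and H3K27me3 (purple) regions in the 4 groups (rows), against distance from the transcription start in kb (x axis), for Cyp7a1, Cyp7b1 and Slc10a1 with 10 kb on each side. Control male liver lacks the green bars around the start of Cyp7a1, the green bar 102814 bp into Cyp7b1 occurs in the male rows alone, and the 3 green loci of Slc10a1 are present in all rows while its ochre bars are absent from E1/E2-KO males and control females.

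Among the regulators, Nr1h4 had the most H3K27ac peaks of the 10 genes in all 4 lists. H3K27ac peaks numbered 13 in control males, 16 in E1/E2-KO males, 15 in control females and 17 in E1/E2-KO females, and 9 of its 19 loci were present in all 4 lists. A peak lay over the 5′ start in E1/E2-KO males and control females, and in the other lists the nearest was 49 bp (control males) and 11 bp (E1/E2-KO females) away. H3K4me1 peaks numbered 11, 9, 8 and 5, and the covered share of its window was 5.28%, 3.78%, 3.13% and 1.48% in the same order. Both values were lower in E1/E2-KO than in control liver in each sex.

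Nr0b2 had 2, 5, 6 and 5 H3K27ac peaks and 7, 4, 6 and 5 H3K4me1 peaks in control males, E1/E2-KO males, control females and E1/E2-KO females. H3K27ac covered 8.19%, 16.2%, 14% and 12% of its window. The peak in the gene was present in all 4 lists (126, 69, 46 and 37 bp from the start), also in the 2 lists in which the gene lay wholly inside an H3K27me3 region. Fgfr4 had 3, 2, 3 and 3 H3K27ac peaks and 4, 4, 3 and 3 H3K4me1 peaks. It was the 1 gene with fewer H3K27ac peaks in E1/E2-KO males than in control males (4.72% of all genes and 7.34% of those with H3K27ac in all 4 lists). Its covered bases were nevertheless 2119 bp against 1913 bp, with a single peak of 1384 bp in place of 2 at the start. Both H3K27ac loci of Fgfr4 were present in all 4 lists.

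Over all 10 genes no H3K27ac peak of control males was lost in E1/E2-KO males, where lost means that no peak of the other list overlapped it. Such a loss occurred at 9.53% of all genes and 15.2% of those with H3K27ac in all 4 lists. A gained peak, the reverse, was found at 8 of 10 genes (47.5% and 64.4%). In females 7 of 10 genes had a lost H3K27ac peak (31.7% and 46.2%) and 5 a gained one (28.7% and 38.3%). The share of the window covered by H3K27ac was larger in E1/E2-KO than in control liver at 10 of 10 genes in males (62% and 88.6%) and smaller at 7 of 10 in females (51.1% and 78.2%), which is near the background of H3K27ac genes in both sexes. Of the 77 H3K27ac loci, 27 (35.1%) were in all 4 lists, 13 (16.9%) in E1/E2-KO males alone and 11 (14.3%) in all lists but control males. The same patterns made up 30.1%, 14.9% and 13.4% of all loci of the genome. A peak over the start was called at 2, 6, 7 and 5 of the genes in control males, E1/E2-KO males, control females and E1/E2-KO females, against 29.5%, 41.5%, 44.9% and 36.7% of the genes with H3K27ac in all 4 lists (17.6%, 25.8%, 27.6% and 22.8% of all genes).

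H3K4me1 peaks at these genes were fewer in sum in E1/E2-KO than in control liver of both sexes. Summed over the 10 genes there were 51 peaks in control males, 34 in E1/E2-KO males, 41 in control females and 31 in E1/E2-KO females. The E1/E2-KO to control ratio was 0.667 in males, where the lists had a ratio of 0.973, and 0.756 in females, where the lists had 0.938. In males 8 of 10 genes had fewer peaks (29.1% of all genes and 43.1% of those with H3K27ac in all 4 lists) and 1 had more (Cyp7b1, 24.9% and 27.8%). In females 6 of 10 had fewer (30.9% and 44.7%) and 2 had more (Cyp7a1 and Slc10a1, 20.7% and 24.1%). The share of the window covered by H3K4me1 was smaller at 9 genes in males (40.9% and 60.1%) and larger at 1 (36.4% and 39.4%). In females that share was smaller at 6 genes (48.5% and 69%) and larger at 4 (26.2% and 29.5%). With each list reduced to its 51417 widest peaks, the sums were 38, 20, 35 and 31, with 8 genes lower (25.1% of all genes and 37.8% of those with H3K27ac in all 4 lists under the same cut) and 0 higher (24.4% and 27.6%) in males, and 5 lower (26.9% and 39%) and 4 higher (23.6% and 28.3%) in females. Within the gene span alone, 4 genes had fewer and 2 had more in males, and 4 had fewer and 1 had more in females. No list had an H3K4me1 peak over the start of any of the 10 genes, which 7.98%, 8.64%, 5.92% and 4.41% of the genes with H3K27ac in all 4 lists had in the order above (8.74%, 10.8%, 6.73% and 5.97% of all genes). A lost H3K4me1 peak was found at 9 of 10 genes in males (45.6% of all genes and 66.9% of those with H3K27ac in all 4 lists) and 8 in females (46.3% and 67.5%), and a gained one at 5 in males (44.5% and 57.4%) and 5 in females (39.7% and 53.4%).

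The H3K4me1 loci of the bile acid genes were shared less between the lists than those of the genome. Of 72 loci, 12 (16.7%) were in all 4 lists, against 28.4% over the genome. H3K27ac peaks at these genes also overlapped an H3K4me1 peak less often than their whole list, with 35.1% against 63.7% in control males, 26.5% against 55.6% in E1/E2-KO males, 31.6% against 49.3% in control females and 16.1% against 40.4% in E1/E2-KO females. In the other direction, H3K4me1 peaks at these genes overlapped an H3K27ac peak in 27.5% against 27.8% of the whole list in control males, 52.9% against 46% in E1/E2-KO males, 39% against 46.6% in control females and 32.3% against 40.2% in E1/E2-KO females. These shares are descriptions of 31 to 68 neighbouring peaks and were not tested. In males 7 genes had both more H3K27ac and fewer H3K4me1 peaks in E1/E2-KO liver (17.6% of all genes and 26.9% of those with H3K27ac in all 4 lists), and in females 3 did (9.5% and 14%). With both marks at equal list length, only Cyp27a1 and Nr0b2 did so in males, and Cyp7b1, Cyp27a1 and Nr1h4 in females. The share of all genes under this joint cut was not computed, and the narrowest width kept differed between the lists. Whether the higher number in males depends on list length was therefore not tested.

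**Figure D5:**
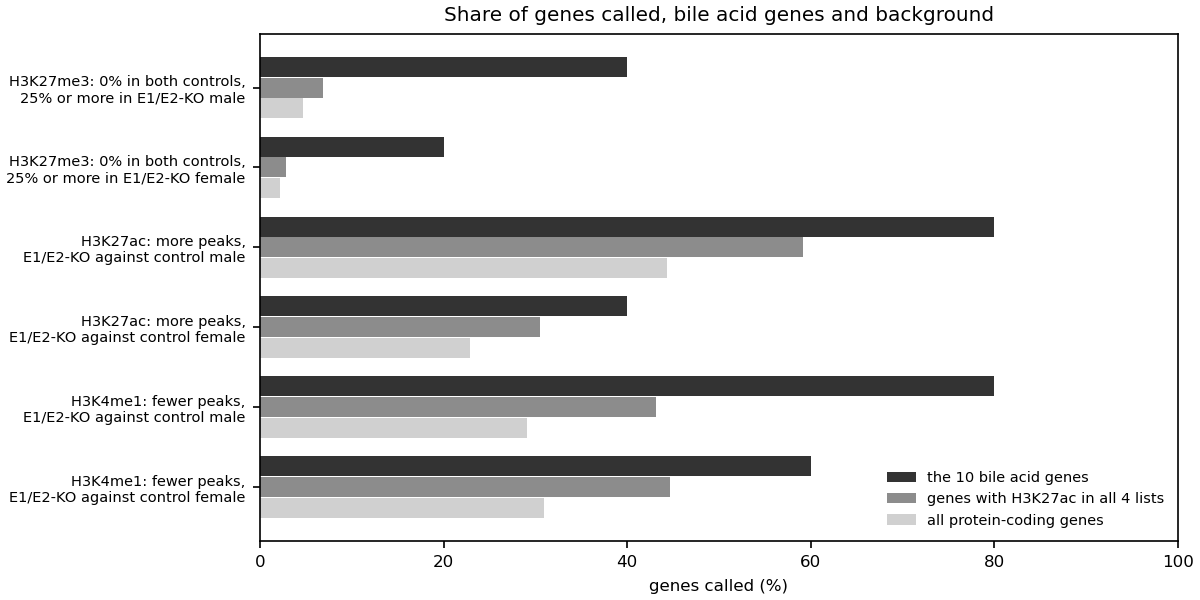
Percent of genes that met each call (x axis) among the 10 bile acid genes (dark bars), the 13311 genes with H3K27ac within 10 kb in all 4 lists (grey) and all 22380 protein-coding genes (light). The rows are a selection of the calls in the text, in which the dark bar exceeds both backgrounds, for H3K27me3 in E1/E2-KO males with 4 of 10 genes against 6.81% and 4.72%, and each dark bar rests on 10 genes. Calls not drawn include some below a background, such as a lost H3K27ac peak within 10 kb in males (0 of 10 against 15.2% and 9.53%) and a gained H3K4me1 peak in males (5 of 10 against 57.4%).

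Between the sexes of the controls, 7 of 10 genes had fewer H3K27ac peaks in male than in female liver (39.4% of all genes and 54% of those with H3K27ac in all 4 lists), and Slc10a1 was the 1 gene with more (5.94% and 9.03%). The control male list was also the shorter one, with 29359 against 49702 peaks, and at equal list length 3 genes had fewer (16% and 21.1%) and 3 had more (17.8% and 28.7%). The H3K27ac coverage was smaller in control males at 10 of 10 genes, as it was at 90.9% of the genes with H3K27ac in all 4 lists and 61.4% of all genes. A peak of control females that no peak of control males overlapped was found at 7 genes (43.7% and 61.2%), and the reverse at Cyp7b1 alone (9.57% and 14.9%). For H3K4me1, 7 genes had more peaks in control males (39.9% and 55.6%) and 2 had fewer (13.1% and 16.3%), with a peak private to males at 8 genes (50.5% and 71%) and one private to females at 5 (32% and 45.3%). In E1/E2-KO liver, 4 genes had more H3K27ac peaks in males than in females (24.2% and 33.1%) and 4 had fewer (17.8% and 24.2%), while the H3K27ac coverage was larger in males at 10 of 10 (52.8% and 77.4%). At equal list length 2 genes had more H3K27ac peaks in E1/E2-KO males and 6 had fewer. A private H3K27ac peak was found in males at 8 genes (34.6% and 48.5%) and in females at 6 (26.7% and 36.9%). For H3K4me1, 6 had more (43.4% and 58%) and 4 fewer (11.8% and 15.2%), with a private peak in males at 8 genes (55.2% and 74.8%) and in females at 6 (32.3% and 46.8%). The H3K4me1 list of E1/E2-KO males was 1.32 times as long as that of E1/E2-KO females. At equal list length 2 genes had more and 5 had fewer, with sums of 20 and 31 peaks. The narrowest peak kept was 300 bp in E1/E2-KO males and 203 bp in E1/E2-KO females, whose list was kept whole. For E1/E2-KO males against E1/E2-KO females the share of all genes under the cut was not computed for either active mark. These counts at equal list length therefore have no background beside them. The H3K4me1 coverage was larger in E1/E2-KO males at 5 of 10 genes (62.7% and 81.1%) and smaller at 5 (13.8% and 17.8%). In the controls it was larger in males at 7 (56.2% and 76.6%) and smaller at 3 (19.3% and 22.8%).

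The other genes of the pathway were counted in the same way. Among 10 other regulators, none touched an H3K27me3 region in either control list, and 6 were at least 25% covered in E1/E2-KO males (4.72% of all genes and 6.81% of those with H3K27ac in all 4 lists) and 4 in E1/E2-KO females (2.12% and 2.79%). Hnf4a, the master regulator of hepatocyte genes, was 89.1% covered in E1/E2-KO males and 71% in E1/E2-KO females. Klb, the coreceptor of Fgfr4, was 60.6% and 93.2% covered, Ppara, the fatty acid receptor, 65.7% and 26.3%, and Prox1, a corepressor of Cyp7a1, 34.7% and 50.2%. Nr5a2 (LRH-1), an activator of Cyp7a1 and Cyp8b1, was 35.4% and 16.3% covered, and Nr1i3 (CAR) 99.5% and 0%. Klb and Prox1 were covered more in E1/E2-KO females than in E1/E2-KO males, the other 4 less.

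Of 12 other hepatic transporters, 4 were higher by at least 25 points in E1/E2-KO than in control males and 3 in females. The shares were 9.85% and 6.29% of all genes, and 13.6% and 7.06% of those with H3K27ac in all 4 lists. The canalicular pump Abcc2 was 100% covered in E1/E2-KO males and 60.5% in E1/E2-KO females, and the sterol transporters Abcg5 (98.3% and 78.9%) and Abcg8 (100% and 36.4%), which share a promoter region, were at 0% in both controls. Abcc3 was 46.5% covered in E1/E2-KO males and 0% in the other 3 lists. Abcc4, a basolateral exporter, was the exception: its coverage was 69% in control males and 62.7% in control females against 24.3% and 22.4% in E1/E2-KO liver, with 2 and 9 H3K27ac peaks in the controls against 12 and 16. Slc51a was 100% covered in all 4 lists, and Slc51b 86.2% to 100%.

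Of 14 other synthesis enzymes, Amacr (46.2%) and Slc27a2 (97.8%) were higher by at least 25 points in males and Slc27a2 (33.1%) in females. This call held for 9.85% of all genes in males and 6.29% in females. Among genes with H3K27ac in all 4 lists the shares were 13.6% and 7.06%. Ch25h was 100% and Cyp46a1 84.1% to 100% covered in every list. Of the 5 bile acid genes of other cells, Fgf15, the ileal hormone, and Vdr, the vitamin D receptor, were 100% covered in all 4 lists, and Fabp6 in all but control females (0%). H3K27ac peaks were more numerous in E1/E2-KO than in control males at 13 of the 14 enzymes, 11 of the 12 transporters and 7 of the 10 regulators, against 44.3% of all genes and 59.2% of those with H3K27ac in all 4 lists. They were fewer at 0, 0 and 1 of them (4.72% and 7.34%). In females they were more numerous at 6, 4 and 2 (22.9% and 30.5%) and fewer at 4, 6 and 4 (19.5% and 27.9%). The widest gap in males was at Ppara (18 against 3 peaks) and the second at Abcc4, and Mafg had fewer (6 against 8). In females the widest gaps upward were at Abcc4 and at Nr1i2 (PXR, 8 against 4), and downward, in a tie of 3 genes, at Abcb4 (5 against 8), Ephx1 (6 against 9) and Slc27a2 (5 against 8).

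H3K4me1 peaks at the other pathway genes summed to 51 in control males and 50 in E1/E2-KO males over the enzymes, 66 and 55 over the transporters and 68 and 60 over the regulators, where the 10 bile acid genes had 51 and 34. They were fewer in E1/E2-KO males at 6, 7 and 6 of these genes and more numerous at 5, 3 and 4. The shares for fewer and more peaks were 29.1% and 24.9% of all genes. Among genes with H3K27ac in all 4 lists they were 43.1% and 27.8%. In females the sums were 44 and 27, 41 and 38, and 47 and 34. Fewer peaks were found at 9, 4 and 6 genes and more at 1, 5 and 2 (30.9% and 20.7% of all genes, 44.7% and 24.1% of those with H3K27ac in all 4 lists). Whether the bile acid genes differ from the rest of the pathway was not tested.

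The genes most like Cyp7a1 and Cyp7b1 were sought by the Euclidean distance over the 12 lists, each value being the coverage of a gene divided by the mean coverage of all genes in that list. Closest to Cyp7a1 were Sh3bp5 (distance 1.03), Cyb5 (1.17) and 1110020G09Rik (1.18), where the median over all genes was 4.40. Sh3bp5 had 2.03%, 7.20%, 7.11% and 5.97% of its window inside H3K27ac peaks in control males, E1/E2-KO males, control females and E1/E2-KO females, against 0.873%, 8.51%, 8.42% and 5.53% for Cyp7a1. Closest to Cyp7b1 were Spag9 (0.415), Anapc1 (0.415) and Zfp945 (0.417), where the median was 3.68. The 3 distances for Cyp7b1 were nearly equal, so their order is not meaningful.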

How the data were processed

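Livers of a group were pooled by the authors, who joined the reads, mapped them with Bowtie 2 (2.3.2) to mm9 and ran SICER (1.1, 400 bp windows, gaps up to 2400 bp) for H3K27me3 and MACS2 (2.1.1) for both active marks. The deposited lists give positions and a name per peak, with no score, p-value or read count, so depth and strength are unknown and no interval or test can be given. The labels give 1% formaldehyde for fixation and the methods of the paper a lower value.

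The last base of each SICER region was 1 short of a full window and was restored. All 12 lists fitted inside the chromosomes of NCBIM37 (mm9), whose GENCODE M1 annotation gave 1 span per protein-coding gene. Peaks were counted within 10 kb of a span. A peak was lost or gained when no peak of the other list overlapped it by at least 1 bp, and overlapping peaks of the 4 lists of a mark formed 1 locus. H3K27me3 was given as percent of the span. Shares over all 22380 genes, and over 13311 genes with H3K27ac in all 4 lists (a set chosen after the data were seen), stand beside the main counts of the 10 genes, and not beside those of every alternative. The overlap code was checked on simulated data. Python 3.11.15, NumPy 2.4.6 and matplotlib 3.10.9 were used.

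The members, marker lists and pathway lists were chosen with earlier results of these data known. The text names all 10 members, the pathway genes at least 25% covered in any list, the 2 pathway genes with the largest gain and the 2 with the largest decrease in H3K27ac peaks in each sex, and the 3 genes nearest to Cyp7a1 and to Cyp7b1. In males 1 of the 2 decreases was a tie at 0 (Fabp6), and in females 3 genes tied, of which the third (Slc27a2) was added after its values were seen. Alternatives were the gene span, 50 kb windows, merged peaks, nearest starts, equal list lengths, 50% overlap, and H3K27me3 with 3 kb or 10 kb added or at least 25% coverage. Start sequences are shown for 8 of the 10 genes. That of 1 gene is not reported here, and motifs and CpG numbers of the set cover the other 9.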

Additional observations from a re-analysis of the deposited data

Results flagged for a closer look

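At 5 pairs of gene and mark the number of peaks within 10 kb differed between E1/E2-KO and control liver in opposite directions in the 2 sexes. The difference between the sexes was not tested, since each group is 1 pooled list. At Cyp7a1, H3K27ac peaks were 6 more in E1/E2-KO than in control male liver and 3 fewer in females, a difference of 9 between the sexes. H3K4me1 at Cyp7a1 went the opposite way, 2 fewer in males and 2 more in females (-4). H3K4me1 at Cyp7b1 was 2 higher in males and 3 lower in females, a difference of 5. At Slc10a1, H3K4me1 peaks were 5 fewer in males and 2 more in females (-7). At Nr0b2, H3K27ac peaks were 3 more in males and 1 fewer in females, a difference of 4. At equal list length 3 of these 5 pairs kept opposite directions, H3K4me1 at Cyp7a1 and Slc10a1 and H3K27ac at Nr0b2. H3K27ac at Cyp7a1 then differed by 0 in males and by 1 more in E1/E2-KO females, and H3K4me1 at Cyp7b1 was lower in E1/E2-KO liver of both sexes (-2 in males and -3 in females). Of the 13311 genes with H3K27ac in all 4 lists, 21.9% showed such opposite directions for H3K27ac and 21% for H3K4me1, so 2 and 3 of 10 genes stand near the background.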

How the results depend on the processing

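No paired analysis was possible because each group is 1 pooled list with no value per liver, and no replicate was left out for the same reason. Of 160 alternative counts, 115 stayed within 1.5 times the reported count and 45 did not, and the cause was not tested. The counts of genes with H3K27me3 in the 2 E1/E2-KO lists stayed within it under all 4 alternatives. Within 10 kb, 2 genes met a region in control males and 2 in control females, and within 3 kb 2 did in control females, against 0 for the span. With equal numbers of the widest H3K27ac peaks, 3 genes had more and 3 fewer in E1/E2-KO against control males. The same cut gave 3 and 3 in control males against control females, and 2 and 6 in E1/E2-KO males against E1/E2-KO females. Lost peaks in E1/E2-KO males then occurred at 2 genes and peaks gained against control females in control males at 4. For H3K4me1 the same cut gave 0 genes with more in E1/E2-KO males and 4 in E1/E2-KO females. In E1/E2-KO males against females it gave 2 with more and 5 with fewer. Gained H3K4me1 peaks fell on 3 genes (E1/E2-KO males) and 5 (control males against females). In the span alone, E1/E2-KO males had fewer H3K27ac peaks at 2 genes, E1/E2-KO females more at 2 and fewer at 1, control males more than females at 0, and E1/E2-KO males more than females at 2. Gained and lost H3K27ac peaks in E1/E2-KO females fell on 3 and 4 genes, and gained ones in E1/E2-KO males against females on 5. H3K4me1 in the span was higher at 2 and lower at 4 in E1/E2-KO males and higher at 1 in E1/E2-KO females, with gained and lost peaks at 5 and 3 between control males and females. With 50 kb windows, control males had more H3K27ac than control females at 0 genes and E1/E2-KO males fewer than E1/E2-KO females at 2, lost H3K27ac peaks occurred at 5 in E1/E2-KO males and 10 in E1/E2-KO males against females, and gained ones at 9 in E1/E2-KO females and 3 in control males against females. H3K4me1 then was higher at 0 in E1/E2-KO males, lower at 1 in control males against females, gained at 9 in each sex and lost at 8 between the controls. Merging peaks within 1 kb left 0 genes with fewer H3K27ac peaks in E1/E2-KO males, 0 with more in control males than females and 2 with fewer in E1/E2-KO males than females, and 4 with more H3K4me1 in control males than females. Peaks nearest to the gene's own start gave 1 gene with fewer in E1/E2-KO females, and 50% overlap gave 1 gene with a lost H3K27ac peak in E1/E2-KO males. Depth is unknown, so an uncalled peak is not an absent mark.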
